A study of Homo sapiens with 90 samples.

Results

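The genes described here are 34 genes of the human complement system. They were chosen by symbol, and all 34 had a row in the deposited table of 28307 genes. Of these, 28 had enough counts to be tested, among 12532 genes tested in all. The counts came from HepaRG, a line of human liver progenitors that gives rise to cells resembling hepatocytes and bile duct cells. They were made by BRB-seq, which pools barcoded RNA samples and counts reads from the 3′ ends of transcripts. Cells labelled wt are called parental below. Cells labelled CYP2D6, a stable line made with a lentivirus for this drug-metabolising P450 enzyme, are called transduced.

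Progenitor cells were sampled at days 0, 2, 4, 7 and 14, all labelled noDMSO. Freshly differentiated cells were sampled without DMSO (days 30 and 32) and with it (days 32, 37 and 44). DMSO is a solvent used to drive and hold the differentiation of this line. Thawed cells were sampled at the same days with the same treatments. The library names of fresh and thawed cells count the days again from 0, with day 30 named as 0, day 32 as 2 and day 44 as 14. Days 30 and 32 are therefore not taken here as time points of a single continuous culture. Each of the 15 conditions had 2 genotypes with 3 replicates each, labelled a, b and c, which makes 90 libraries. All cultures shared a William's E medium with serum, insulin and hydrocortisone. The protocols give 2 weeks of growth followed by 2 weeks with 1.7% DMSO, while the samples of day 30 are labelled noDMSO, and the labels do not say when DMSO was withdrawn. They also do not say whether the transduced line is 1 clone, nor whether replicates were separate cultures. The p-values therefore measure the spread between these libraries, which may be technical.

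Complement is a cascade of plasma proteins, most of them made by hepatocytes, that marks and destroys microbes and damaged cells. The classical and lectin pathways start with the proteases C1r, C1s and the MASPs, which cleave C4 and C2. The alternative pathway runs on factor B and factor D. All routes meet at C3, the central component, and C5 then starts the assembly of C6, C7, C8 and C9 into the membrane attack complex. Soluble inhibitors from the liver and membrane-bound inhibitors on nearly every cell keep the cascade from attacking the host.

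Of the 90 libraries, 3 were nearly empty, with 212, 505 and 10137 counts, and were left out. They were replicate c of parental progenitors at days 2 and 14 and of parental fresh cells at day 30, so those groups have 2 libraries. The other 87 held between 723391 and 3882866 counts, with a median of 1935150. CYP2D6 had a count in all 15 transduced libraries of each status, at 2.21 to 26.2 CPM (read counts set to the same total in each library). In parental libraries it lay between 0 and 3.73 CPM. Among hepatocyte markers ALB averaged 5410 CPM in progenitors and 12400 CPM in fresh cells. Of the biliary and progenitor markers tested, KRT19 averaged 247 and 215 CPM, CD24 199 and 115 CPM and MMP7 187 and 76.7 CPM. SPP1 averaged 63.1 and 31.9 CPM, KRT7 3.08 and 1.96 CPM and SOX9 6.61 and 8.08 CPM. EPCAM had 0 counts over all libraries. Of 12 macrophage and leukocyte markers, 4 had enough counts to be tested: CD68 with 6627 counts over the 87 libraries, CD14 with 2864, LAPTM5 with 802 and CD74 with 402. The other 8 had between 2 counts (TYROBP) and 284 counts (LYZ), among them PTPRC with 27 and MARCO with 4.

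A gene was called at an edgeR adjusted p under 0.05 over all genes tested, and only called genes are said to have risen or fallen. Log2 fold changes are given with their SE. In bulk RNA, fewer cells of a type and less RNA per cell cannot be told apart. The 28 tested genes comprised 7 of 9 initiators of the classical and lectin pathways, all 4 central and alternative pathway components, 4 of 6 terminal components, 10 of 12 soluble regulators and all 3 membrane regulators. C1RL was grouped with the initiators as a relative of C1R, and the grouping does not mean that it starts either pathway. The 6 that were not tested had almost no counts over the 87 libraries. MASP2, a protease of the lectin pathway, had 70 counts and MBL2, the mannose-binding lectin, had 66. The terminal components C7 and C9 had 84 and 87. The gene CFHR5 of the factor H related family had 38, and CPN1, the catalytic subunit of carboxypeptidase N, had 75.

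Some members share sequence, and the rule by which reads were assigned is not explained in the sources used here. The sharing was searched in GENCODE v29 transcripts. In the last 500 bases of the transcripts, all 451 stretches of 50 bases in C4A, which encodes a C4 isotype, were also present in C4B, which encodes the other. CFHR3 shared 26.6% of such stretches with CFHR4, and CFHR4 shared 22% with CFHR3. CFB shared 92% with the annotation AL645922.1 and VTN 61.2% with AC002094.3. Exons of C1R overlapped those of C1RL, exons of C2 those of CFB, exons of C1S those of EMG1 and exons of C4A those of STK19, each on the same strand. Values of these genes are uncertain to that extent.

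Levels of the secreted complement genes ranged widely over the cultures, and those of the membrane regulators did not. Across the 15 conditions, 20 of the 28 tested genes had their lowest mean at progenitor day 2 and 6 had it at progenitor day 4. The highest mean was at fresh day 30 for 9 genes and at fresh day 44 for another 9. The ratio of highest to lowest mean was 15.1 for C3, 27.2 for CFB and 46.5 for VTN, which encodes vitronectin, an inhibitor of the terminal complex. It was 61.6 for C6 and 76.2 for CFHR2, whose lowest means were only 1.892 and 1.175 CPM. For the inhibitors carried on the cell surface it was 1.71 for CD46, 1.72 for CD55 and 1.65 for CD59.

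**Figure D1:**
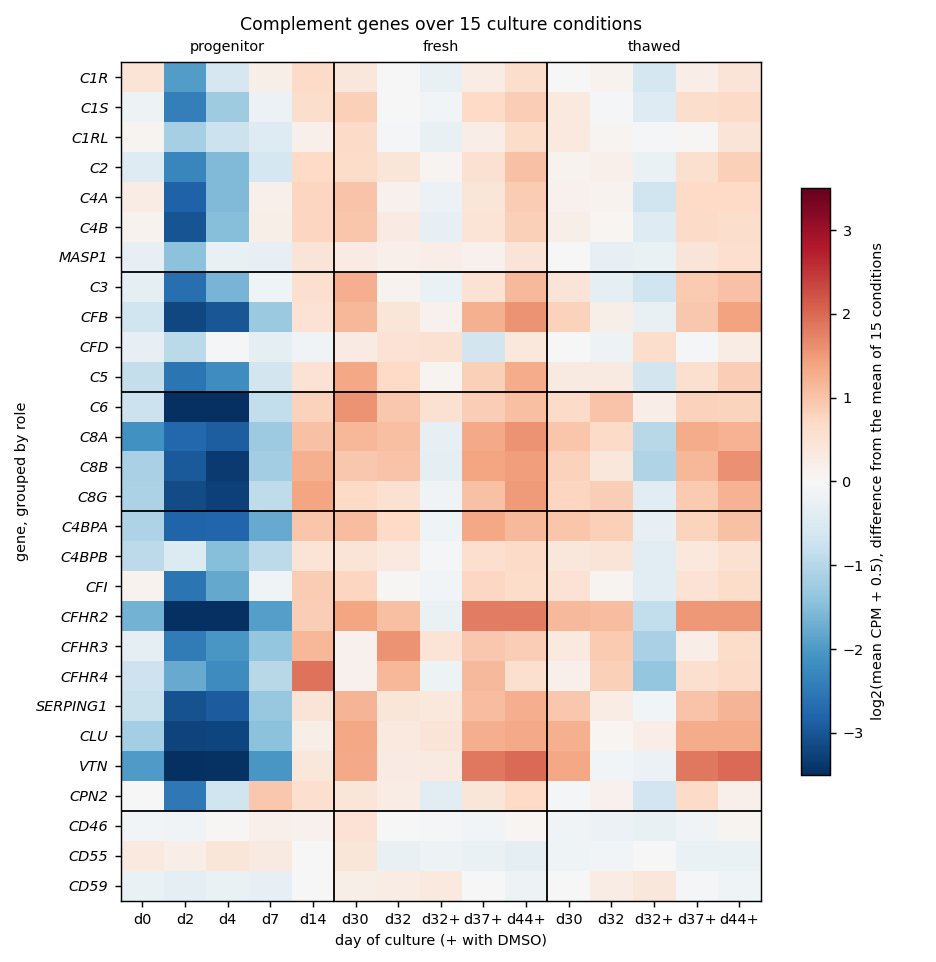
Mean level of the 28 tested complement genes (rows, grouped by role) in 15 culture conditions (columns), both genotypes together. Colour is log2(mean CPM + 0.5) minus the gene's mean over the 15 conditions; most rows are lowest at progenitor days 2 and 4, and the CD46, CD55 and CD59 rows stay near 0.

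The course of C3, the central component, is given by its means. The mean was 301 ± 95.1 CPM (SD, n = 6) in progenitors at day 0 and 60.1 ± 6.69 CPM (n = 5) at day 2. It was 121 ± 21.3 CPM (n = 6) at day 4, 335 ± 35.3 CPM (n = 6) at day 7 and 554 ± 109 CPM (n = 5) at day 14. In fresh cells it was 905 ± 214 CPM (n = 5) at day 30, and at day 32 it was 407 ± 42.9 CPM (n = 6) without and 316 ± 44.1 CPM (n = 6) with DMSO. The mean thus had a first low at progenitor day 2 and a second at day 32. With DMSO it was 532 ± 70.8 CPM (n = 6) at day 37 and 829 ± 132 CPM (n = 6) at day 44. Thawed cells had 510.1 ± 101 CPM (n = 6) at day 30, 232 ± 27.1 CPM (n = 6) at day 32 with DMSO and 765 ± 115 CPM (n = 6) at day 44.

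**Figure D2:**
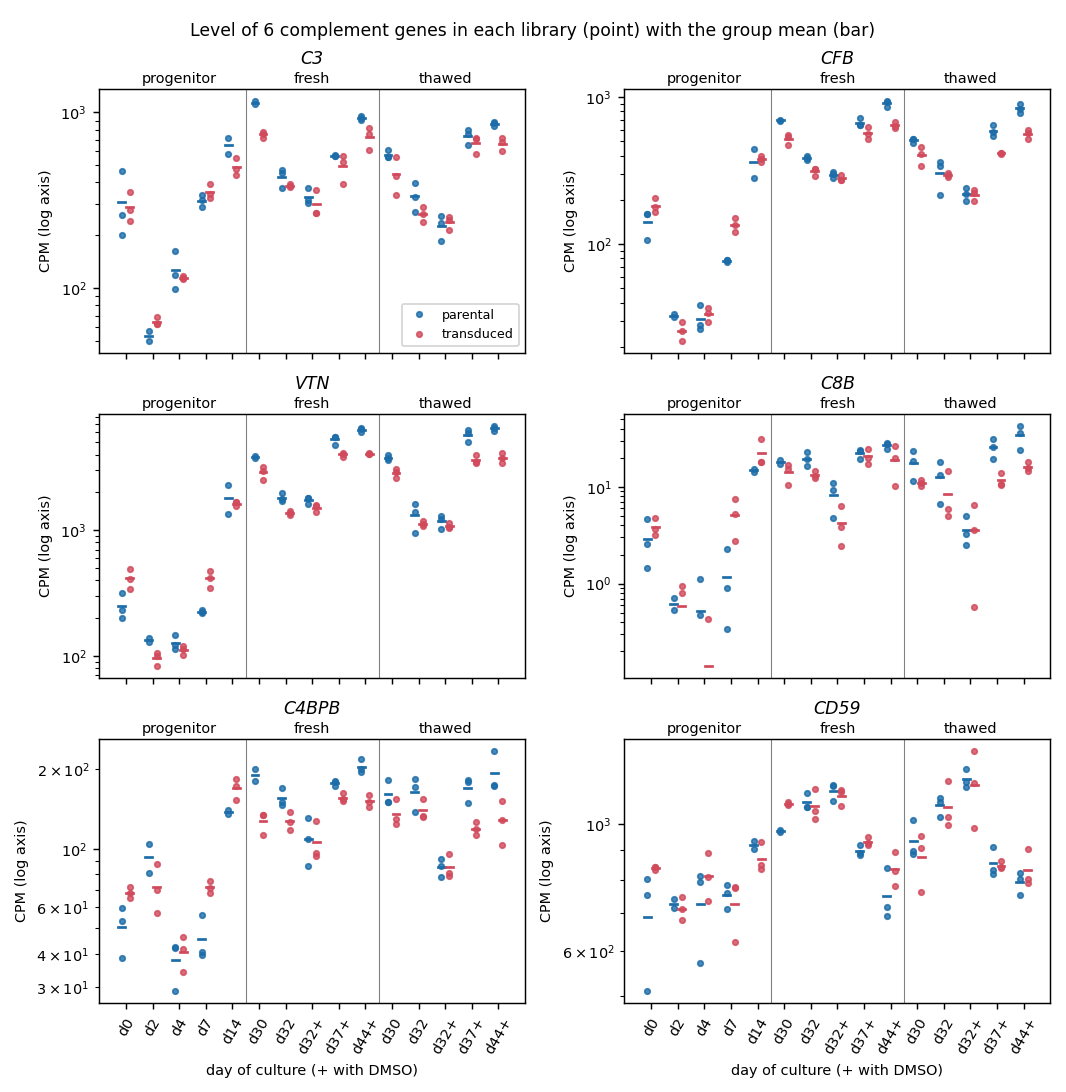
CPM (log axis) of 6 complement genes in each library (points) with the group mean (bars), by day of culture, status and genotype. Values of 0 (C8B) cannot be drawn on the log axis. With both genotypes together the means of C3, CFB and VTN are lowest at progenitor day 2, with a second low at day 32. The parental means of CFB and VTN are slightly lower at progenitor day 4 than at day 2. CD59 stays between 511 and 1345 CPM over all libraries.

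CFB and VTN are shown with their upstream sequence because both had a wide range over the series and carry motifs of factors of the acute phase response. Entries for 23 of the 34 genes were found in the RefSeq promoter table (GRCh38.p14), and the 250 bases before the annotated start were searched on both strands for 6 motifs. Capitals mark the matches. For CFB they are the interferon-type element (GAAA and GAAA with 2 bases between them) as its reverse complement, beginning 140 bases before the start, the STAT-type site TTCCNGGAA at 92 bases and a TATAAA box at 30 bases. For VTN they are 2 C/EBP-type sites (TTGCNNAA or its reverse complement), at 225 and 47 bases, and a STAT-type site between them at 109 bases.
CFB (chr6:31945845-31946094, plus strand): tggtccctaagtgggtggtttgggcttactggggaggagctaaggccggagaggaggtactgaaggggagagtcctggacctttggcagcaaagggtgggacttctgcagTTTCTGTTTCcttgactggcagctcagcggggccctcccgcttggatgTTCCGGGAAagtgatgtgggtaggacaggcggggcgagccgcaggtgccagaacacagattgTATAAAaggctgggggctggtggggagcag
VTN (chr17:28370308-28370557, minus strand): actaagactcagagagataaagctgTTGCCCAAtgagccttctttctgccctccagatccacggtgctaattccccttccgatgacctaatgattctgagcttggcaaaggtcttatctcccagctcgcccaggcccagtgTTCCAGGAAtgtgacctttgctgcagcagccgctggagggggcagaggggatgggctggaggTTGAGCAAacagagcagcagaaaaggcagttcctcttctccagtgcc

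The STAT-type site was present in 3 of the 23 promoters (C1RL, CFB and VTN), and in 0.968% of the 35116 windows of the same length in the table. The C/EBP-type site was in 5 of 23 against 9.05%, and the interferon-type element in CFB alone against 3.02%. TATAAA was in 2 of 23 against 10.7%, and the HNF1-type site GTTAAT in 2 of 23 against 6.23%. The NF-kB-type site (GGG and TTCC with 3 bases between them) was in 0 of 23 against 5.67%. These matches describe letters and not bound sites. C1RL had both a STAT-type and a C/EBP-type site, and its ratio of highest to lowest mean was 3.81. A link between the motifs and the range of a gene was not tested.

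Between day 0 and day 2 of progenitor culture, 21 complement genes fell and 1 rose, where 30.4% of all genes tested were called, 13.8% higher and 16.6% lower. The median log2 fold change of the 28 was -2.11, against -0.08 over all genes. All 7 tested initiators fell. C1R and C1S, the proteases of the C1 complex, fell by 2.45 ± 0.112 and 2.16 ± 0.0993 on the log2 scale. C4A fell by 3.14 ± 0.218, from between 40.2 and 117 CPM at day 0 to at most 12.1 CPM at day 2, and C4B by 3.40 ± 0.256. As this pair shares its 3′ end, the falls are not separate observations.

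C3 lay between 202 and 465 CPM at day 0 (n = 6, median 271 CPM). At day 2 its values were 62.3, 68.3 and 62.3 CPM in transduced and 50.4 and 57.1 CPM in parental libraries, all below day 0. The log2 fold change was -2.34 ± 0.139 (edgeR adjusted p = 5.06e-26). CFB, which encodes the protease factor B of the alternative pathway, had 29.5, 25.8 and 22.1 CPM in transduced and 33.4 and 32 CPM in parental libraries at day 2. At day 0 it had been between 106 and 206 CPM, and it fell by 2.46 ± 0.119 on the log2 scale. C5 fell by 1.77 ± 0.321 (adjusted p = 2.7e-06). CFD, which encodes factor D, averaged 0.938 CPM at day 2 and was not called (adjusted p = 0.253).

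Among the terminal components C6 had 3.33, 0 and 1.51 CPM in transduced and 1.42 and 3.2 CPM in parental libraries at day 2, against values between 15.4 and 33.9 CPM at day 0. C6 fell by 3.5 ± 0.27 on the log2 scale (edgeR adjusted p = 7.47e-22). C8B and C8G, chains of the C8 protein, also fell, and C8A, the third chain, was not called (adjusted p = 0.271). Of the 10 soluble regulators 8 fell. SERPING1, the C1 inhibitor, fell by 2.25 ± 0.0995, CLU, which encodes clusterin, by 2.06 ± 0.103 and CFI, the protease that inactivates C3b and C4b, by 2.71 ± 0.137. CFHR3 and CFHR4 had 1 and 5 counts in all at day 2. Where a condition held fewer than 20 counts of either gene, the call is given without a fold. None of the 3 membrane regulators was called, with adjusted p between 0.531 and 0.999.

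The exception was C4BPB, the beta chain of C4b-binding protein, which rose by 0.46 ± 0.124 (edgeR adjusted p = 0.00177). At day 0 it had 65.2, 71.7 and 67.9 CPM in transduced and 59.6, 38.8 and 53.4 CPM in parental libraries. At day 2 the values were 87.5, 69.9 and 57.3 CPM in transduced and 81 and 105 CPM in parental libraries, so the days overlap. With parental libraries alone the log2 fold change was 0.86 (adjusted p = 0.000142), and with transduced libraries alone it was 0.07 (adjusted p = 0.83); the difference between the genotypes was not tested. Without replicate b in all groups the call was lost (adjusted p = 0.167).

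C4BPA, the alpha chain gene close by on chromosome 1, fell by 1.89 ± 0.475 (edgeR adjusted p = 0.000862). The log2 ratio of C4BPB to C4BPA, with 0.5 added to each, was 3.75 ± 0.411 (SD, n = 6) at day 0 and 6.11 ± 0.61 (n = 5) at day 2. Its lowest library at day 2, at 5.29, lay above the highest at day 0, at 4.13. However, C4BPA lay between 0.476 and 1.6 CPM at day 2, against 2.585 to 8.255 CPM at day 0. Its fold and this ratio therefore rest on few counts, and their size is uncertain. This pair was chosen after its values were seen.

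The upstream sequences of these genes for chains of 1 protein are shown because C4BPB was called higher and C4BPA, with few counts, lower at day 2. Both lie on the plus strand of chromosome 1 in GENCODE v29 (GRCh38), C4BPB from 207088860 to 207099993 and C4BPA from 207104233 to 207144972. Of the 250 positions before their starts, compared base by base without gaps, 61 were identical. No level for unrelated promoters was computed, so this count does not show shared sequence. The capitals in C4BPA mark the HNF1-type site at 50 bases before the start, and the C4BPB window held none of the 6 motifs.
C4BPA (chr1:207103983-207104232, plus strand): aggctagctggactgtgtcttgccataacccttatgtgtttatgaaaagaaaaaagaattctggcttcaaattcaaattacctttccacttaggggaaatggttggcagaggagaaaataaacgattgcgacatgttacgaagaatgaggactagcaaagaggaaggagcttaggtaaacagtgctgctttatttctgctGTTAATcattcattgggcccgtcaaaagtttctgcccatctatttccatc
C4BPB (chr1:207088610-207088859, plus strand): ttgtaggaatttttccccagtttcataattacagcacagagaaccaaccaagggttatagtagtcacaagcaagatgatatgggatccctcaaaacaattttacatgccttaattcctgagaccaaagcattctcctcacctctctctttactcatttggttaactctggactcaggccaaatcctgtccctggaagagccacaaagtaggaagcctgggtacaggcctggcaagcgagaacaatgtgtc

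From day 2 to day 14, 25 of the 28 complement genes rose and 0 fell, where 36.2% of all genes tested were called, 19.5% higher and 16.7% lower. The median log2 fold change was 3.48, against 0.09 over all genes. This comparison shares the day 2 libraries with the one above. All 7 tested initiators rose, among them C1S by 2.98 ± 0.104 and C4B by 4.10 ± 0.25 on the log2 scale. C3 rose by 3.26 ± 0.146 to 439.8, 551 and 476 CPM in transduced and 720.3 and 584 CPM in parental libraries. CFB rose by 3.67 ± 0.125 to values between 281 and 442 CPM, and C5 by 3.22 ± 0.287 to values between 21.9 and 29.4 CPM. No library of day 14 overlapped day 2 for these 3 genes.

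All 4 tested terminal components rose, with a median log2 fold change of 4.73. They were near the floor at day 2, with at most 1.42 CPM for C8A, 0.951 for C8B, 2.67 for C8G and 3.33 for C6. CFHR2 also had at most 3.33 CPM at day 2. The size of the folds of these genes is therefore uncertain. C6 rose by 5.15 ± 0.251 (edgeR adjusted p = 3.3e-37) to 57, 79 and 49.3 CPM in transduced and 89.4 and 71.2 CPM in parental libraries. C8G rose by 4.68 ± 0.3 to 71.5, 56 and 59 CPM in transduced and 41.5 and 38.6 CPM in parental libraries. All 10 tested soluble regulators rose, CFHR2 by 4.58 ± 0.295 and VTN by 3.92 ± 0.117. CFHR3 and CFHR4, from their few counts at day 2, lay between 2.79 and 12.5 CPM and between 5.97 and 16.9 CPM at day 14. Of the membrane regulators CD59, which blocks the membrane attack complex, rose by 0.32 ± 0.0888, and CD46 and CD55 were not called (adjusted p = 0.336 and 0.416).

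Other gene lists moved in the same libraries. Of 26 tested hepatocyte secreted proteins outside complement, 24 fell from day 0 to day 2 and 25 rose from day 2 to day 14. Of 18 tested acute phase genes outside complement 16 fell and 17 then rose. Of 19 tested cell cycle genes 19 rose from day 0 to day 2 and 19 fell from day 2 to day 14. Of 18 tested interferon response genes 1 rose and 6 fell at day 2, and 6 rose and 3 fell at day 14. Markers of other cell types moved as well. Summed over the 12 macrophage and leukocyte markers the level was 49.6 ± 8.76 CPM (SD, n = 6) at day 0, 23 ± 2.22 CPM (n = 5) at day 2 and 91.1 ± 11 CPM (n = 5) at day 14, and 2 of 4 tested fell and 2 then rose. The sum of 13 stellate, fibroblast and endothelial markers was 402 ± 99.2 CPM at day 0, 188 ± 18.1 CPM at day 2 and 205 ± 28.8 CPM at day 14, and of 8 tested 4 fell at day 2, while 3 rose and 2 fell at day 14. Of 6 tested biliary markers 1 rose and 4 fell at day 2, and 2 rose and 1 fell at day 14. The part of these lists in the complement changes was not tested.

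Of 29 further genes linked to complement, 9 had enough counts, of which 4 fell at day 2 and 4 rose at day 14. The 9 were C1QBP, C1QTNF1, C5AR2, FCN1, CPB2, CSMD1, F2, KLKB1 and CALR, which include prothrombin (F2), prekallikrein (KLKB1) and calreticulin (CALR). None of the C1q chain genes was tested, with 27 counts for C1QA and 4 each for C1QB and C1QC.

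From progenitor day 14 to fresh day 30, 8 complement genes rose and 2 fell, where 22.6% of all genes tested were called, 10.7% higher and 11.9% lower. None of the 7 tested initiators was called. C3 rose by 0.71 ± 0.128, CFB by 0.70 ± 0.105 and C5 by 0.92 ± 0.204. C3 at day 30 had 778, 718 and 754 CPM in transduced and 1112 and 1163 CPM in parental libraries. The parental libraries lay above all of day 14, and the lowest transduced library lay just below the highest of day 14. CLU rose by 1.15 ± 0.0974 (edgeR adjusted p = 2.88e-18) and VTN by 0.95 ± 0.101, with no overlap between the days.

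C8G and CFHR4 fell. C8G had 35.7, 35.8 and 29 CPM in transduced and 31.7 and 33.2 CPM in parental libraries at day 30, all below day 14. The log2 fold change was -0.60 ± 0.207 (edgeR adjusted p = 0.0248). The call was lost without parental progenitor day 14 library a (adjusted p = 0.0726) and without replicate a, b or c in all groups (adjusted p between 0.0659 and 0.228). CFHR4 went from values between 5.97 and 16.9 CPM to 4.46, 1.49 and 6.44 CPM in transduced and 0 and 3.69 CPM in parental libraries, a log2 fold change of -1.76 ± 0.462 (adjusted p = 0.00207).

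In fresh cells at day 32 without DMSO, 14 complement genes were lower than at day 30 and 1 was higher, where 17.3% of all genes tested were called, 9.53% higher and 7.81% lower. This comparison shares the day 30 libraries with the one above. Of the initiators C1R, C1S, C1RL, C4A and C4B fell, C1S by 0.85 ± 0.0886 on the log2 scale. C3 fell by 1.18 ± 0.121 (edgeR adjusted p = 7.49e-13) to values between 370.4 and 472 CPM, below every library of day 30. CFB fell by 0.79 ± 0.0994, and C5 by 0.73 ± 0.194 (adjusted p = 0.00308), a call lost without replicate a or b in all groups (0.056 and 0.0694). VTN fell by 1.08 ± 0.0945, from values between 2495 and 3866 CPM to values between 1326 and 1965 CPM. CLU fell by 1.04 ± 0.0909 and SERPING1 by 0.81 ± 0.0874. CD55, which speeds the decay of C3 convertases, was the 1 membrane regulator that fell, by 0.69 ± 0.161.

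The C8 chains were not called in this step. C8A, C8B and C8G had log2 fold changes of -0.14, 0.02 and -0.18, with adjusted p between 0.62 and 0.979. CFHR3 rose by 1.52 ± 0.418 (edgeR adjusted p = 0.00475), from 3.65, 1.87 and 4.02 CPM in transduced and 2.35 and 3.69 CPM in parental libraries to values between 6.65 and 11.2 CPM. CFHR4, which shares sequence with it, had a log2 fold change of 1.11 ± 0.47 and was not called (adjusted p = 0.0914). With transduced libraries alone 7 complement genes were called in this comparison in place of 15.

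In thawed cells the same step gave 7 lower and 1 higher, where 11.8% of all genes tested were called, 5.98% higher and 5.86% lower. All 7 that fell in thawed cells had also fallen in fresh cells, which is 50% of the 14 there. They were C1S, C3, CFB, CFI, SERPING1, CLU and VTN. VTN fell by 1.43 ± 0.0912 (edgeR adjusted p = 6.29e-25), from values between 2601 and 3961 CPM to values between 947 and 1617 CPM. CLU fell by 1.16 ± 0.0872, C3 by 0.77 ± 0.116 and CFB by 0.59 ± 0.0949, while C5 had -0.06 ± 0.2 and was not called (adjusted p = 0.912). CD59 rose by 0.25 ± 0.0794 (adjusted p = 0.0222), and this call was lost without replicate a, b or c in all groups (adjusted p between 0.0967 and 0.181). In place of 8 called genes there were 5 without replicate a and 5 with transduced libraries alone.

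The difference between the thawed and the fresh change was tested for each gene. It was called for 4 of the 28, all with the higher value in thawed cells, where 1.81% of all genes tested were called, 0.662% higher and 1.15% lower. The day 30 libraries are shared with the comparison of thawed and fresh cells at day 30, where all 4 genes were lower in thawed cells. The 2 results are therefore not separate observations. The log2 difference was 1.00 ± 0.212 for C6 (edgeR adjusted p = 0.00294), 0.84 ± 0.23 for C4A, 0.58 ± 0.136 for C1R and 0.48 ± 0.122 for C1S. C6 had a log2 fold change of 0.34 ± 0.147 in thawed cells, which was not called there, and of -0.66 ± 0.152 in fresh cells. C4B had a difference of 0.57 ± 0.237 and was not called (adjusted p = 0.212), nor were C3 (0.202), CFB (0.533) and C5 (0.212). When replicate a, b or c in all groups was left out, 0 or 1 of the 28 genes was called, and with the 3 nearly empty libraries kept it was 1.

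At day 32 the fresh cells with DMSO were compared with those without. No complement gene was higher with DMSO and 6 were lower, where 2.45% of all genes tested were called, 0.479% higher and 1.97% lower. They were C4B, C8A, C8B, C4BPB, CFHR2 and CFHR4. CFHR2 lay between 39 and 61.4 CPM without and between 15.5 and 31.7 CPM with DMSO (n = 6 each), with no overlap. The log2 fold change was -1.32 ± 0.193 (edgeR adjusted p = 1.85e-07). C8B fell by 1.45 ± 0.305, from values between 12.3 and 22.9 CPM to values between 2.48 and 10.9 CPM, again with no overlap. C8A fell by 1.43 ± 0.277 and C4BPB by 0.40 ± 0.114.

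C4B fell by 0.60 ± 0.176 (edgeR adjusted p = 0.0413) while C4A, with which it shares its 3′ end, had -0.37 ± 0.166 and was not called (adjusted p = 0.28). CFHR4 had 93 counts in all without and 18 with DMSO and was called lower (adjusted p = 0.0259), and CFHR3 at -1.22 ± 0.394 was not called (adjusted p = 0.0746). C3 had a log2 fold change of -0.36 ± 0.116 (adjusted p = 0.0763), CFB of -0.27 ± 0.0956 (0.129) and C5 of -0.61 ± 0.206 (0.0958). With 1 genotype alone 1 gene was called in transduced and 2 in parental cells. When replicate a, b or c in all groups was left out 3 to 4 were called, and CFHR4 was lost each time (adjusted p between 0.0579 and 0.251). The C4B call was lost without replicate b or c (adjusted p = 0.535 and 0.247), and the C4BPB call without a or b (0.651 and 0.162).

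In thawed cells 17 complement genes were lower with DMSO and 0 higher, where 7.76% of all genes tested were called, 2.42% higher and 5.35% lower. Of the 6 genes lower in fresh cells 5 were among them, which is 83.3% of the fresh and 29.4% of the thawed list. All 4 tested terminal components fell: C8A by 1.78 ± 0.294, C8B by 1.53 ± 0.323, C8G by 1.27 ± 0.202 and C6 by 0.76 ± 0.15. With DMSO C8A lay between 2.71 and 5.16 CPM and C8B between 0.578 and 6.53 CPM, so the size of their folds is uncertain. CFHR2 fell by 1.97 ± 0.195 (edgeR adjusted p = 2.8e-14), from values between 36.5 and 87.6 CPM to values between 7.97 and 21.3 CPM. CFHR3 and CFHR4 fell to 11 and 9 counts in all, from 63 and 64 (adjusted p = 0.000129 and 0.000182). Both chains of C4b-binding protein fell here, C4BPA by 1.17 ± 0.252 and C4BPB by 0.84 ± 0.113.

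C5 fell by 0.93 ± 0.215, CFB by 0.47 ± 0.0957 and C3 by 0.36 ± 0.117 (edgeR adjusted p = 0.0414). The C3 call was lost without replicate a, b or c in all groups (adjusted p between 0.097 and 0.211), and the C5 call without c (0.0811). With transduced libraries alone 9 of the 28 genes were called in place of 17.

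VTN and CLU were not called in either status. VTN had log2 fold changes of 0.04 ± 0.0897 in fresh and -0.11 ± 0.0898 in thawed cells, and CLU 0.11 ± 0.0864 and 0.16 ± 0.0864, with adjusted p between 0.309 and 0.898. In fresh cells VTN lay between 1326 and 1965 CPM without and between 1398 and 1810 CPM with DMSO. The log2 ratio of C8A and C8B together to VTN, with 0.5 added to each side, was -5.56 ± 0.146 (SD, n = 6) without and -7.04 ± 0.525 with DMSO in fresh cells. In thawed cells it was -5.72 ± 0.192 and -7.26 ± 0.479. In both statuses every library with DMSO lay below every library without. In fresh cells with DMSO C8A had 28 counts in transduced and 21 in parental libraries, and C8B had 15 and 32. The size of the move in this ratio is therefore uncertain. C8A, C8B, VTN and CLU were chosen after their values were seen.

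**Figure D3:**
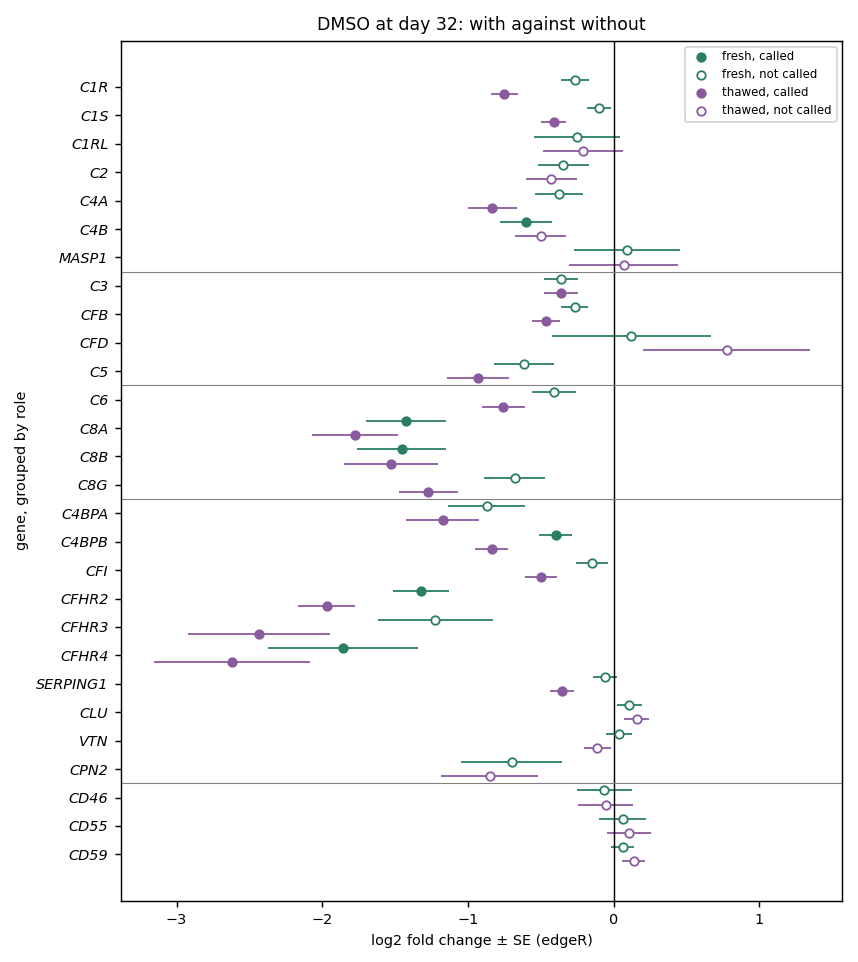
Log2 fold change ± SE of the 28 tested complement genes (grouped by role) between cells with and without DMSO at day 32, in fresh and thawed cells; filled points are called at an adjusted p under 0.05. C8A, C8B and the CFHR genes lie furthest to the left, and VTN, CLU and the 3 membrane regulators lie near 0. C8A, C8B, CFHR3 and CFHR4 had few counts with DMSO.

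The difference between the effects of DMSO in thawed and fresh cells was called for none of the 28 genes by edgeR, where 0.12% of all genes tested were called, 0% higher and 0.12% lower. At an unadjusted p under 0.05 there were 7, all lower in thawed cells, and DESeq2 called 1. For C3 the difference was 0.01 ± 0.165 (log2), for CFB -0.20 ± 0.135 and for C5 -0.32 ± 0.298. The larger count in thawed cells is therefore not shown to be a larger effect. Of 18 tested acute phase genes outside complement, 8 were lower with DMSO in fresh and 10 in thawed cells. Of 26 hepatocyte secreted proteins 9 and 17 were lower. For the difference between thawed and fresh cells, 7 of the 18 acute phase genes and 2 of the 26 secreted proteins were called. All of these were lower in thawed cells. Of 6 biliary markers 1 was lower in fresh cells, and 3 were lower and 1 was higher in thawed cells. The part of these lists was not tested.

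From day 32 to day 44, both with DMSO, 21 complement genes rose and 1 fell in fresh cells, where 11.5% of all genes tested were called, 6.53% higher and 4.95% lower. In thawed cells 21 rose and 1 fell, where 9.59% were called, 5.68% higher and 3.91% lower. These comparisons share the day 32 libraries with DMSO with the ones above. Of the 21 risen in each status 19 were shared, which is 90.5% of either list. C1RL, a relative of C1R, and CPN2, the regulatory subunit of carboxypeptidase N, were called in fresh cells, and CFHR3 and CFHR4 in thawed cells. The difference between the statuses was not tested for this step. The median log2 fold change was 0.96 in fresh and 1.10 in thawed cells, against -0.01 and -0.02 over all genes.

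C3 rose by 1.38 ± 0.117 in fresh cells (edgeR adjusted p = 1.03e-16), from values between 268 and 369.9 CPM to values between 608 and 951 CPM. In thawed cells it rose by 1.71 ± 0.118, from values between 187 and 258 CPM to values between 605 and 881 CPM. The days did not overlap in either status. CFB rose by 1.41 ± 0.0966 in fresh and 1.66 ± 0.097 in thawed cells, and C5 by 1.21 ± 0.203 and 1.54 ± 0.208.

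All 4 tested terminal components rose in both statuses. C8B rose by 1.95 ± 0.299 in fresh and 2.71 ± 0.298 in thawed cells, and C8A by 1.92 ± 0.273 and 2.33 ± 0.284. Both started from low levels at day 32 with DMSO. In fresh cells C8B lay between 2.48 and 10.9 CPM and C8A between 2.72 and 14.4 CPM. In thawed cells C8B lay between 0.578 and 6.53 CPM and C8A between 2.71 and 5.16 CPM. The size of these folds is therefore uncertain. Among the regulators CFHR2 rose by 2.06 ± 0.191 in fresh cells, from a median of 20 CPM to 84 CPM. In thawed cells it rose by 2.41 ± 0.194. VTN rose by 1.64 ± 0.0917 in fresh cells, from values between 1398 and 1810 CPM to values between 4032 and 6491 CPM, and by 2.13 ± 0.0931 in thawed cells (edgeR adjusted p = 5.24e-37). CFHR3 and CFHR4 were not called in fresh cells (adjusted p = 0.604 and 0.334). In thawed cells they rose from those few counts to 47 and 52, and the CFHR3 call was lost without replicate a in all groups (adjusted p = 0.283).

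CD59 went the other way in both statuses. In fresh cells its values fell from between 1078 and 1174 CPM to between 690.2 and 894 CPM, a log2 fold change of -0.52 ± 0.0798 (edgeR adjusted p = 9.91e-08). In thawed cells they fell from between 985 and 1345 CPM to between 752 and 906 CPM, a log2 fold change of -0.55 ± 0.0796 (adjusted p = 2.57e-08). CD46, a cofactor for the cleavage of C3b and C4b, and CD55 were not called, with adjusted p between 0.359 and 0.775. The log2 ratio of C3 to CD59, with 0.5 added to each, went from -1.85 ± 0.182 (SD, n = 6) to 0.06 ± 0.358 in fresh cells and from -2.36 ± 0.281 to -0.10 ± 0.287 in thawed cells. This ratio was chosen after the values were seen.

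Over the same days 24 of 26 hepatocyte secreted proteins rose in fresh cells and 26 in thawed cells. Of 19 cell cycle genes 18 fell in fresh and 14 in thawed cells. The summed level of the cell cycle list was 945 ± 104 CPM at day 32 with DMSO and 246 ± 64 CPM at day 44 in fresh cells (SD, n = 6 each). Summed over 12 macrophage and leukocyte markers the level in fresh cells lay between 60.8 and 87.8 CPM at day 32 and between 71.1 and 92.6 CPM at day 44. In thawed cells it lay between 66.6 and 90.2 CPM and between 62.2 and 87.5 CPM. Of 4 tested markers of this list 2 rose in fresh and 1 in thawed cells. The part of these lists in the complement changes was not tested.

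Thawed cells were compared with fresh cells at day 30 and at day 44. The libraries are shared with the comparisons between days above. At day 30, 12 complement genes were lower in thawed cells and 0 higher, where 15.6% of all genes tested were called, 9.54% higher and 6.02% lower. Of the initiators C1R, C1S, C2, C4A and C4B were lower. C3 lay between 339.6 and 610 CPM in thawed and between 718 and 1163 CPM in fresh cells, a log2 fold change of -0.87 ± 0.121 (edgeR adjusted p = 1.09e-07). The log2 fold change was -1.10 ± 0.2 for C5, -0.94 ± 0.154 for C6, -0.89 ± 0.166 for C4A, -0.81 ± 0.17 for C4B and -0.41 ± 0.0994 for CFB. The CFB call was lost without replicate b in all groups (adjusted p = 0.0733). SERPING1, CD46 and CD55 were also lower in thawed cells.

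VTN at day 30 had a log2 fold change of -0.02 ± 0.0947 and was not called (adjusted p = 0.938). The C8 chains, C4BPA, C4BPB and the CFHR genes were not called either, with adjusted p between 0.32 and 0.979. With transduced libraries alone 4 of the 28 were called in place of 12. At day 44 with DMSO none of the 28 was called by edgeR or by DESeq2, where 0.184% of all genes tested were called by edgeR, 0.0718% higher and 0.112% lower. At an unadjusted p under 0.05 there were 3, all lower in thawed cells. C3 had a log2 fold change of -0.12 ± 0.114, CFB of -0.16 ± 0.0935 and C5 of -0.42 ± 0.185.

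Between genotypes, 1 complement gene was higher in transduced progenitors, while 14 in fresh and 11 in thawed cells were lower in transduced cells. Averaged over the 5 progenitor days, 24 of the 28 genes had a log2 fold change above 0, and 1.57% of all genes tested were called, 1.26% higher and 0.311% lower. The called gene was CFI, at 0.28 ± 0.0784 (edgeR adjusted p = 0.0373). At day 7 CFI had 104, 115 and 109.8 CPM in transduced and 86.7, 86.8 and 83.6 CPM in parental libraries, so transduced libraries were the higher ones. The call was lost without replicate a, b or c in all groups (adjusted p between 0.074 and 0.383) and without parental progenitor day 14 library a (adjusted p = 0.192). C3 had a log2 fold change of -0.04 ± 0.0793, CFB of 0.20 ± 0.0695 and C5 of 0.14 ± 0.188, none of them called.

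In fresh cells, where 3.77% of all genes tested were called, 1.88% higher and 1.9% lower, the 14 included C1R, C1S, C2 and C4B among the initiators and C3, CFB, C5 and C6. The other 6 were the regulators C4BPA, C4BPB, CFHR2, SERPING1, CLU and VTN. VTN had a log2 fold change of -0.41 ± 0.0579 (edgeR adjusted p = 2.57e-07). At day 44 it had 4037, 4032 and 4101 CPM in transduced and 6405, 6491 and 6005 CPM in parental libraries, with no overlap. At day 32 with DMSO its means were closer, at 1512 CPM in transduced and 1739 CPM in parental cells. SERPING1 at day 44 had 1184, 1216 and 1206 CPM in transduced and 1605, 1718 and 1603 CPM in parental libraries, and CLU had 1397, 1287 and 1384 CPM in transduced and 1978, 2135 and 1863 CPM in parental libraries. The log2 fold change was -0.63 ± 0.155 for C4BPA, -0.40 ± 0.115 for CFHR2, -0.40 ± 0.125 for C5, -0.30 ± 0.0611 for CFB and -0.29 ± 0.0744 for C3. CFHR3 and CFHR4 were not called (adjusted p = 0.431 and 0.249).

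In thawed cells, where 2.65% of all genes tested were called, 1.1% higher and 1.55% lower, 9 of the 11 were also called in fresh cells, which is 64.3% of the fresh and 81.8% of the thawed list. VTN had a log2 fold change of -0.44 ± 0.0567 (edgeR adjusted p = 7.82e-09). At day 44 it had 4083, 3424 and 3743 CPM in transduced and 6212, 6760 and 6555 CPM in parental libraries. The log2 fold change was -0.67 ± 0.182 for C8B, -0.58 ± 0.152 for C4BPA, -0.46 ± 0.129 for C5 and -0.29 ± 0.0599 for CFB, and all were called. C3 at -0.23 ± 0.0729 was not (adjusted p = 0.0758).

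None of the 3 membrane regulators was called between genotypes in any status, with adjusted p between 0.549 and 1. When replicate a, b or c in all groups was left out, 6 to 7 complement genes in fresh and 3 to 9 in thawed cells were called. The C5 call was lost each time, with adjusted p between 0.107 and 0.476 in fresh and between 0.129 and 0.245 in thawed cells. In fresh cells the CFHR2 call was lost without replicate a or b, the C4BPA call without a or c and the C3 call without b or c. In thawed cells those of C8B, C4BPA and CFB were lost without replicate b or c.

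**Figure D4:**
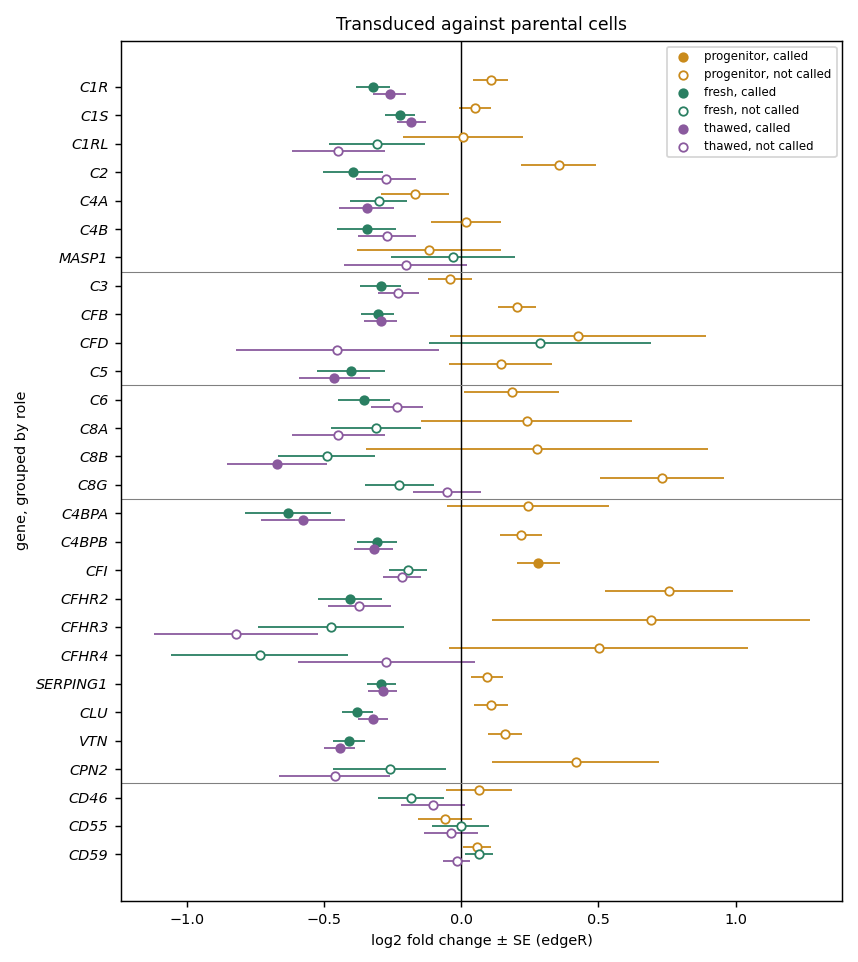
Log2 fold change ± SE of the 28 tested complement genes (grouped by role) between transduced and parental cells, averaged over the 5 conditions of each status; filled points are called at an adjusted p under 0.05. Progenitor points lie mostly to the right of 0 with 1 called, and fresh and thawed points mostly to the left with 14 and 11 called.

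The difference between the genotype effects in fresh cells and in progenitors was called for 10 of the 28 genes, all with the lower value in fresh cells, where 1.47% of all genes tested were called, 0.136% higher and 1.33% lower. They were C1R, C2, CFB, C8G, C4BPB, CFI, CFHR2, SERPING1, CLU and VTN. The log2 difference was -0.57 ± 0.0848 for VTN (edgeR adjusted p = 7.13e-07), -1.16 ± 0.259 for CFHR2 and -0.51 ± 0.0926 for CFB. C3 (adjusted p = 0.38) and C5 (0.333) were not called, nor were CFHR3 and CFHR4 (0.589 and 0.592). The count was 1 without replicate b in all groups, 5 without replicate a and 9 without replicate c.

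The ranges of the genotypes were also compared within single conditions. VTN at progenitor day 7 had 476, 421 and 349.8 CPM in transduced and 218, 224 and 233 CPM in parental libraries, so transduced cells were the higher ones there. At progenitor day 0 the transduced libraries lay wholly above the parental ones for 11 of the 28 genes and below for 0, where 8.71% of all genes tested lay above. At day 7 the counts were 11 and 0, with 9.28% of all genes above. At day 2, with 2 parental libraries, some genes lay the other way. VTN had 99.9, 83.8 and 106 CPM in transduced and 129 and 139 CPM in parental libraries there, and CFB and SERPING1 were also lower in every transduced library. At that day, 2 of the 28 genes lay above and 5 below, against 14.7% and 16.5% of all genes. The count below is near the share of all genes, so it shows no change of direction for the complement genes as a set. VTN, CFB and SERPING1 were picked from those 5. At day 4 the counts were 2 above and 0 below, where 3.8% and 3.93% of all genes did so. At day 14, also with 2 parental libraries, they were 5 above and 3 below, near the 15.6% and 12% of all genes. In fresh cells at day 44, 16 lay below and 0 above, where 8.13% of all genes lay below. In thawed cells at day 44, 17 lay below and 0 above, where 8.62% lay below. The counts were lower at day 32 with DMSO, with 4 below in fresh and 2 in thawed cells, where 9.41% and 9.89% of all genes lay below. These counts are near the share of all genes, so they show no genotype difference there for the complement genes as a set.

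Hepatocyte secreted proteins outside complement were also called between genotypes. Of 26 tested, 10 were higher in transduced progenitors, 17 lower in transduced fresh cells and 17 lower in transduced thawed cells. Of 19 cell cycle genes 2 were higher and 0 lower in transduced fresh cells. Of 6 biliary markers 2 were higher in transduced progenitors. The part of these lists was not tested, and the enzyme, the transduction and other differences between the lines cannot be told apart.

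C4A and C4B are reported as a pair because their 3′ ends cannot be told apart by the stretches searched. C4A took 66.7% of their joint counts over the 87 libraries, with 10548 counts against 5255. By condition the share lay between 63% in thawed cells at day 32 with DMSO and 70.4% in progenitors at day 2, where C4A had 69 counts and C4B 29. In single libraries it ran from 50.9% at progenitor day 4 to 81% at progenitor day 2. The log2 ratio of C4A to C4B was 1.10 ± 0.31 (SD, n = 6) at progenitor day 0 and 1.02 ± 0.123 (n = 5) at day 14, a move smaller than the spread between libraries. As the rule that assigned the reads is not explained, a steady share does not show that the genes were expressed in a fixed proportion.

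**Figure D5:**
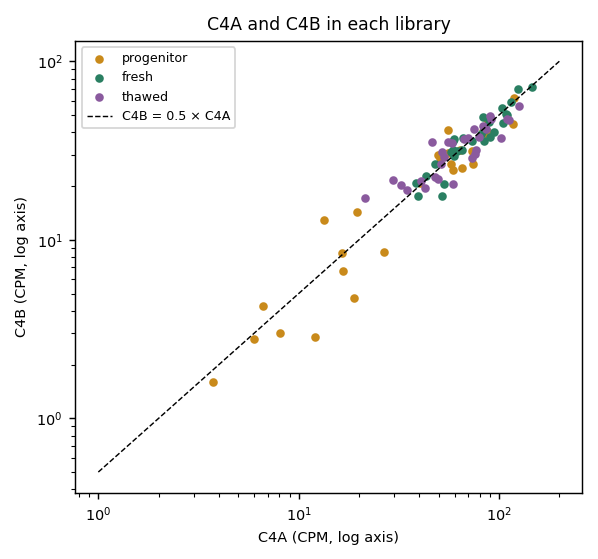
CPM of C4A against CPM of C4B in each of the 87 libraries, coloured by status, with a line where C4B is 0.5 times C4A. The points follow the line over the whole range, and the libraries with the lowest and highest share of C4A are progenitor libraries of days 4 and 2.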

How the data were processed

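Whole-number read counts per gene, deposited by the authors as 1 table of 28307 genes by 90 libraries, were the starting point. Per the labels' protocols, 10 ng of total RNA per sample was reverse transcribed with template switching, amplified and tagmented. The submitters' processing notes name BWA 0.7.4.4 and the builds mm10 and hg38 without their roles; the name of the deposited table carries the terms refseq, unq and total, which no source used here explains. The counting rule, the use of molecular identifiers and strand are not given in the sources used here. The 34 members and the other gene lists were chosen with earlier results of these data known.

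Libraries with a total under 0.25 times the median were left out. Genes were filtered with filterByExpr on the 30 groups of condition and genotype, which left 12532, and 3172 genes had no count. Counts were scaled with TMM factors and fitted with edgeR 4.0.16 (quasi-likelihood, robust, 1 mean per group, 57 residual degrees of freedom) in R 4.3.3, and p-values were adjusted by Benjamini-Hochberg over all genes tested. Contrasts averaged the genotypes or, for genotype, the 5 conditions of a status. The script was tested on simulated data. Named in each comparison were C3, CFB and C5 and up to 3 of the largest called rises and falls among members with a mean of at least 20 CPM, with C4A and C4B and the CFHR genes together; other members named were chosen after their values were seen. Alternatives were RLE factors, other filters, a block for the replicate letter, omitting replicates or libraries, 1 genotype alone, only the compared libraries, and DESeq2 1.42.0. Replicate letters did not pair the libraries: deviations of same-letter libraries had a median correlation of -0.00104.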

Additional observations from a re-analysis of the deposited data

Results flagged for a closer look

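For 14 values the effect in 1 setting differed from that in another by the edgeR test of the difference itself. The change from day 30 to day 32 without DMSO was higher in thawed than in fresh cells, by 0.58 (log2) for C1R, 0.48 for C1S, 0.84 for C4A and 1.00 for C6. In the same day 30 libraries these genes were lower in thawed than in fresh cells. The C1R call was lost without replicate a, b or c in all groups (adjusted p between 0.0989 and 0.117), and so was the C4A call (adjusted p between 0.123 and 0.168). The C6 call was lost without replicate a (adjusted p = 0.117) and was the 1 call left without b or c, so the C1S call was also lost each time. C4A shares its 3′ end with C4B, for which the difference was not called.

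The effect of genotype, as transduced against parental, was lower in fresh cells than in progenitors for 10 genes. The log2 difference was -0.43 for C1R and -0.75 for C2 among the initiators, -0.51 for CFB and -0.96 for C8G. Among the soluble regulators it was -0.52 for C4BPB, -0.47 for CFI, -1.16 for CFHR2, -0.38 for SERPING1, -0.49 for CLU and -0.57 for VTN. The C8G call was lost without replicate a, b or c in all groups (adjusted p between 0.108 and 0.328). The C2 call was lost without replicate a or b (0.254 and 0.117). Without replicate b, 1 of the 28 genes was called, so at least 9 of the 10 calls were lost, those of CFB and CFHR2 among them (adjusted p = 0.096 and 0.156). Of 26 tested hepatocyte secreted proteins outside complement, 18 had a lower genotype effect in fresh cells, and their part was not tested.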

How the results depend on the processing

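The alternatives were run on 110 values of named genes and on 17 counts of called genes; fits with 1 genotype alone gave 75 values and 11 counts. With the replicate letter as a block all 110 values kept their direction and call. The count between genotypes in fresh cells was 13 with the block in place of 14, for fresh day 32 against day 30 14 of the 15 called genes were shared, and the other 15 comparisons called the same genes. RLE factors moved no count by over 1.5 times. With transduced libraries alone the count was 7 for fresh day 32 against day 30 and 5 for the same step in thawed cells, 1 and 9 for DMSO in fresh and thawed cells, and 4 for thawed against fresh at day 30. With parental libraries alone it was 2 for DMSO in fresh cells. For genotype in progenitors the count was 0 with no filter on low counts, 0 with the compared libraries only and 3 without parental progenitor day 14 library a. Keeping the nearly empty libraries gave 1 for the thawed minus fresh change to day 32, and DESeq2 gave 1 for the thawed minus fresh effect of DMSO.

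Without replicate a, b or c in all groups the counts ranged from 9 to 14 for fresh day 32 against day 30, 5 to 7 for thawed, 3 to 4 for DMSO in fresh cells, and 0 to 1 for the thawed minus fresh change to day 32. For genotype they ranged from 0 to 0 in progenitors, 6 to 7 in fresh and 3 to 9 in thawed cells, and 1 to 9 for fresh minus progenitor. Each of these fits has fewer libraries. Values that changed sign were not called in either fit. The C3 difference in the effect of DMSO was -0.00802 with RLE factors, -0.00399 with the empty libraries and -0.00834 with DESeq2, and without 1 replicate letter it ranged from -0.156 to 0.158. Between genotypes in progenitors C3 then ranged from -0.059 to 0.0074 and C5 from -0.0723 to 0.517. CFHR4 ranged from -1.22 to 0.477 between genotypes in fresh cells and from -1.84 to 0.487 for fresh minus progenitor. C5 had 0.18 in thawed parental cells from day 30 to day 32. The cause of these moves was not tested. Depth limits the genes with few counts, such as CFHR3, CFHR4 and CFD.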
